A study of Homo sapiens with 18 samples.

Results

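The members described here are the nuclear genes for subunits of the mitochondrial respiratory chain and the ATP synthase. They were taken by name from the gene tables of both cell lines, as symbols that begin with NDUFA, NDUFB, NDUFC, NDUFS or NDUFV and a number, UQCR, COX4 to COX8 followed by a letter, or ATP5. That rule was met by 82 rows in each table, and after 1 pseudogene, UQCRBP1, was left out, 81 remained, of 15358 genes listed for MCF10A and 15257 for RPE-1. Of the 81, 76 in MCF10A and 77 in RPE-1 were subunit genes, which made 77 different genes over both lines, and the other 5 and 4 were read-through, antisense or divergent transcripts named after a subunit. The rule reads names and no measured value, although earlier results of these data were known when it was set. Among the genes it leaves out are those of complex II, CYC1 of complex III and NDUFAB1 of complex I.

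Complexes I, III and IV of the respiratory chain pass electrons from NADH to oxygen and pump protons across the inner mitochondrial membrane, and the ATP synthase, also called complex V, lets the protons flow back and makes ATP. A few subunits in the middle of these complexes are made inside the mitochondrion from mitochondrial DNA, and all others are made in the cytosol from nuclear genes and imported, so 2 genomes and 2 sets of ribosomes supply each complex. The nuclear subunit mRNAs are mostly short and abundant, as are the mRNAs of the ribosomal proteins, against which they are set here.

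MCF10A is an immortalised line of human breast epithelial cells, and RPE-1 is a line of human retinal pigment epithelial cells immortalised with telomerase (hTERT), so each condition rests on 1 line per tissue. Cells received a non-targeting siRNA control (siNT), a mimic of hsa-miR-28-5p (miR-28) or a mimic of hsa-miR-708-5p (miR-708), each at 30 nM for 72 h, and polyA+ RNA was sequenced from 3 replicates of each treatment in each line, which made 6 groups and 18 libraries. The replicates are numbered 7 to 9 in MCF10A and 1 to 3 in RPE-1, and values below follow that order. The study followed ribosome biogenesis, and the sequencing asked how the mRNA pool changed with each mimic relative to siNT.

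Both miRNAs belong to the MIR-28 family and share their seed, which is bases 2 to 8 and is shown in capitals because it sets which mRNAs a miRNA can pair with:
hsa-miR-28-5p: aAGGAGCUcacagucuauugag
hsa-miR-708-5p: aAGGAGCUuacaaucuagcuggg
Counted from the 5′ end, 16 of the 22 positions that both sequences cover hold the same base, and position 9 is the first that differs.

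Estimated depth, read from the step between the lowest values, in units of 1000000 fragments, was 19.4 to 31.7 per MCF10A library and 23.8 to 40.3 per RPE-1 library, at which 3 reads correspond to 2.36 to 4.41 normalised counts. The tables hold normalised counts that were scaled within each line, so levels are not compared between lines. RPS28, the ribosomal protein mRNA that the study followed up, had 3870 ± 249 normalised counts with siNT, 567 ± 113 with miR-28 and 624 ± 140 with miR-708 in MCF10A (mean ± SD, n = 3), and 3220 ± 295.02, 147 ± 33 and 153 ± 28 in RPE-1. Of 10 breast epithelial markers all 10 were above 100 normalised counts in MCF10A. In RPE-1 4 of them were (ITGB4, KRT8, KRT18 and DSP), and KRT5, KRT14, KRT17, CDH1 and EPCAM were not listed. Of 10 retinal pigment epithelial markers 3 were above 100 normalised counts in RPE-1 (BEST1, MITF and OTX2), and the defining genes RPE65, TYR and TTR were not listed there. In MCF10A 2 of the 10 were above 100 (BEST1 and MITF), and RPE65 was listed with a mean of 27.2. The summed level of 8 fibroblast and mesenchymal markers lay at 182075 to 256019 normalised counts with siNT, 155153 to 176038 with miR-28 and 128500.0 to 142260.0 with miR-708 in RPE-1, and at 13681 to 19876, 13766 to 31028 and 20354 to 35618 in MCF10A. The summed level of the 10 breast epithelial markers in MCF10A lay at 244410.0 to 246113 with siNT, 172951 to 188071 with miR-28 and 142429 to 170885 with miR-708, and that of the retinal pigment epithelial markers listed in RPE-1 at 2986 to 4373, 1970 to 2106 and 2119 to 2309, so that in each line all mimic libraries lay below all siNT libraries in the sum. Single retinal pigment epithelial markers did not all fall in RPE-1, where of 6 tested 4 had a log2 fold change below 0 and 2 above with each mimic. There BEST1 had means of 166, 230 and 205 with siNT, miR-28 and miR-708, and MITF had 1908, 1093 and 1291. PMEL and TYRP1 had siNT means of 189, with single libraries up to 544 and 561. The part of these markers in the results was not tested. The 28S rRNA gene RNA28SN3 took 7.55% of RPE-1 miR-28 library 1 and 2.47% to 4.06% of the other 8 RPE-1 libraries. The mitochondrial rRNA gene RNR2 took 1.24% of that library and 0.477% to 0.732% of the other 8, and in MCF10A 1.49% to 1.52% with siNT, 1.81% to 2.11% with miR-28 and 1.41% to 1.65% with miR-708.

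The subunit mRNAs were among the more abundant ones in both lines. The median over subunits of the mean of 9 libraries was 2170 normalised counts in MCF10A, where the median of all genes was 510, and 1203 in RPE-1, where it was 560. In MCF10A 47 of 76 subunits were among the top 25% of all genes by level, and in RPE-1 22 of 77. Together the subunits took 0.936% ± 0.0553 of the summed value of the MCF10A siNT libraries (SD, n = 3), 0.768% ± 0.0436 with miR-28 and 0.803% ± 0.0493 with miR-708. In RPE-1 they took 0.385% ± 0.0207, 0.327% ± 0.0247 and 0.361% ± 0.0301. In MCF10A all 6 mimic libraries lay below all siNT libraries in this share, whereas in RPE-1 miR-708 library 1, at 0.396%, lay within the siNT range of 0.361% to 0.397%.

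Per 1000 nt of transcript, with the length of 1 annotated transcript per gene, ATP5F1B was highest in both lines, at 12570.2 normalised counts in MCF10A and 5460.4 in RPE-1. The order depends on that length, which includes long annotated 3′ UTRs, such as 9368 bases in NDUFS1. ATP5F1B encodes the beta subunit, which holds the catalytic sites of the ATP synthase. COX4I1, the widely expressed form of complex IV subunit 4, came next with 9314 and 4511, followed by the complex I accessory subunits NDUFB9 in MCF10A (9019.6) and NDUFS5 in RPE-1 (3965). Some forms with a restricted range of tissues were near the floor. COX6B2, the testis form of complex IV subunit 6B, had means of 10.8 ± 3.78 normalised counts with siNT in MCF10A and 9.66 ± 9.19 in RPE-1. NDUFA4L2, a paralogue of NDUFA4, had 5.21 ± 3.40 in RPE-1 and was not listed in MCF10A. UQCRHL, a copy of UQCRH, was well above the floor, at 521 to 758 in MCF10A and 147 to 257.7 in RPE-1. COX4I2, COX6A2, COX7A1, COX7B2, COX8C and ATP5MGL were listed in neither table, nor was any of the 26 names given to the subunits encoded by mitochondrial DNA, which are not analysed here.

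After genes that did not reach 10 normalised counts in 3 of 9 libraries were left out, 76 subunits were tested in MCF10A and 75 in RPE-1, where COX6B2 and NDUFA4L2 did not pass. Every fold change below is on the scale of log2(normalised count + 1), and a gene is called where adjusted p is under 0.05. Except for the difference between the lines, every adjusted p is from limma with Benjamini-Hochberg adjustment over all 14726 (MCF10A) or 14527 (RPE-1) genes tested. The 2 mimics are compared with the same 3 siNT libraries in each line, so their fold changes are not independent of each other.

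With either mimic, subunit mRNAs of all 4 complexes were lower than with siNT in both lines, mostly by a modest amount. In MCF10A 34 of 76 subunits were called lower with miR-28 and 0 higher, where 12.0% of all genes tested were called lower and 10.7% higher, and the median log2 fold change of the subunits was -0.33. With miR-708 38 of 76 were lower and 0 higher (1, ATP5IF1, with the replicate number as a block in the fit), where 17.3% of all genes were lower and 15.5% higher, and the median was -0.31. In RPE-1 33 of 75 subunits were lower with miR-28 and 2 higher, where 23.5% of all genes were lower and 23.3% higher, and the median was -0.26. The largest count was with miR-708 in RPE-1, where 47 of 75 were lower and 1 higher against 31.2% and 30.9% of all genes, and the median was -0.33. The median over all genes was 0.01, -0.00, 0.01 and 0.00 in the same order. In bulk samples fewer cells of a type and less RNA per cell cannot be told apart.

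These counts depend on how libraries are scaled to each other. Scaled by library size in place of the deposited size factors, 22, 15, 26 and 16 subunits were called lower in the same order of comparisons, 10 rather than 1 were called higher with miR-708 in RPE-1, and the medians were -0.22, -0.17, -0.18 and -0.01. That scaling moved the median of all genes to 0.12, 0.14, 0.09 and 0.32. Relative to the median of all genes the subunits lay at -0.34, -0.30, -0.27 and -0.33, a difference that a scaling, which moves all genes of a library alike, leaves nearly as it is by construction. Among all genes called, the share called higher went from 47.1% to 66.1% and from 47.3% to 67.6% in MCF10A with miR-28 and miR-708, and from 49.9% to 59.4% and from 49.7% to 71.8% in RPE-1. The last share is of 9438 genes called among 14527, and the 10 subunits called higher stand beside it.

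**Figure D1:**
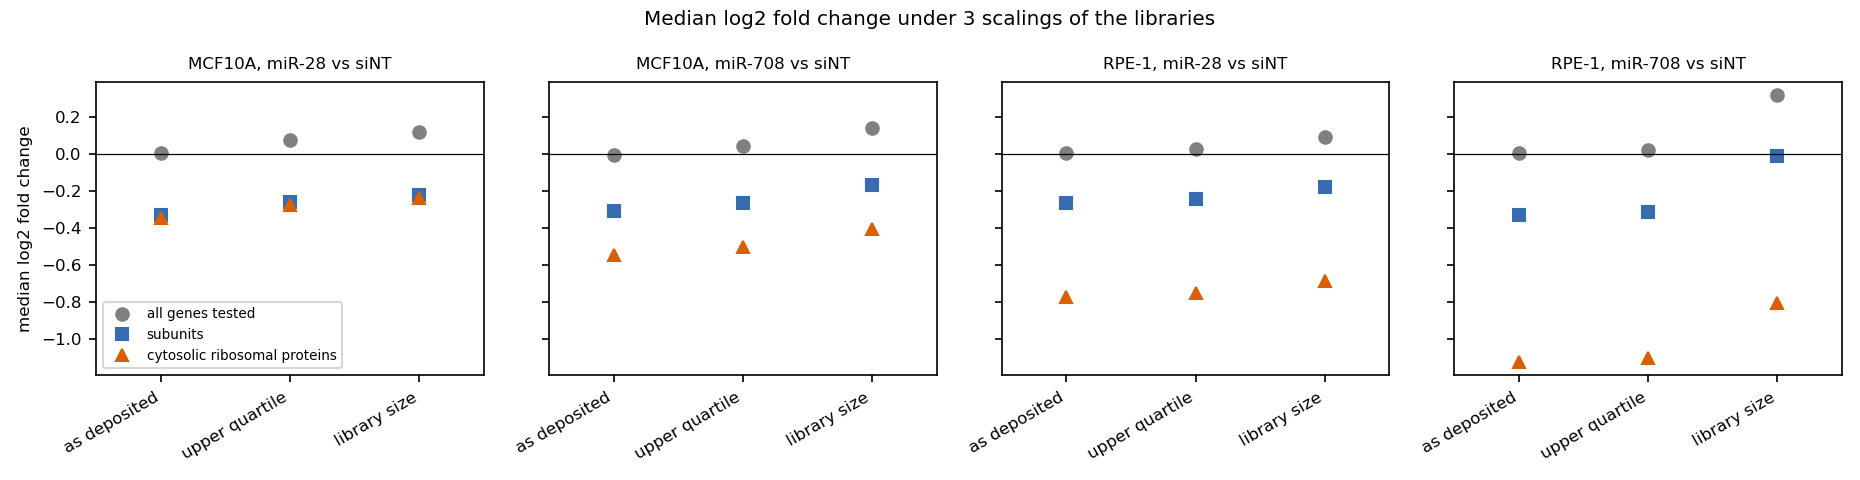
Median log2 fold change against siNT (vertical axis) of all genes tested, the subunits and the cytosolic ribosomal proteins under the deposited scaling, upper quartile scaling and library size scaling, 1 panel per comparison. The subunits lie below all genes in every panel, and by library size their median with miR-708 in RPE-1 is -0.01 while that of all genes is 0.32.

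The counts also depend on single libraries in MCF10A. There, the 34 subunits called lower with miR-28 became 20 without siNT library 8, 17 without siNT library 9 and 20 without miR-28 library 8, and the 38 with miR-708 became 22 without siNT library 8, 18 without siNT library 9, 17 without miR-708 library 8 and 21 without miR-708 library 9. In RPE-1 the 33 called with miR-28 became 20 without siNT library 1, 21 without miR-28 library 2 and 39 without library 1 of miR-28, the library with the high 28S rRNA share. The log2 fold change was below the median of all genes in 75 and 72 of 76 subunits in MCF10A and in 68 and 68 of 75 in RPE-1 with miR-28 and miR-708, and all 3 mimic libraries lay below all 3 siNT libraries in 53, 49, 43 and 52 subunits, where this held for 22.1%, 23.9%, 27.5% and 34.9% of all genes. All 3 lay above siNT in 0, 1, 2 and 3 subunits, where this held for 19.7%, 22.6%, 26.9% and 34.3% of all genes. Leaving out each library in turn, the median over subunits ranged from -0.39 to -0.29 and from -0.36 to -0.27 in MCF10A and from -0.35 to -0.17 and from -0.41 to -0.32 in RPE-1.

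**Figure D2:**
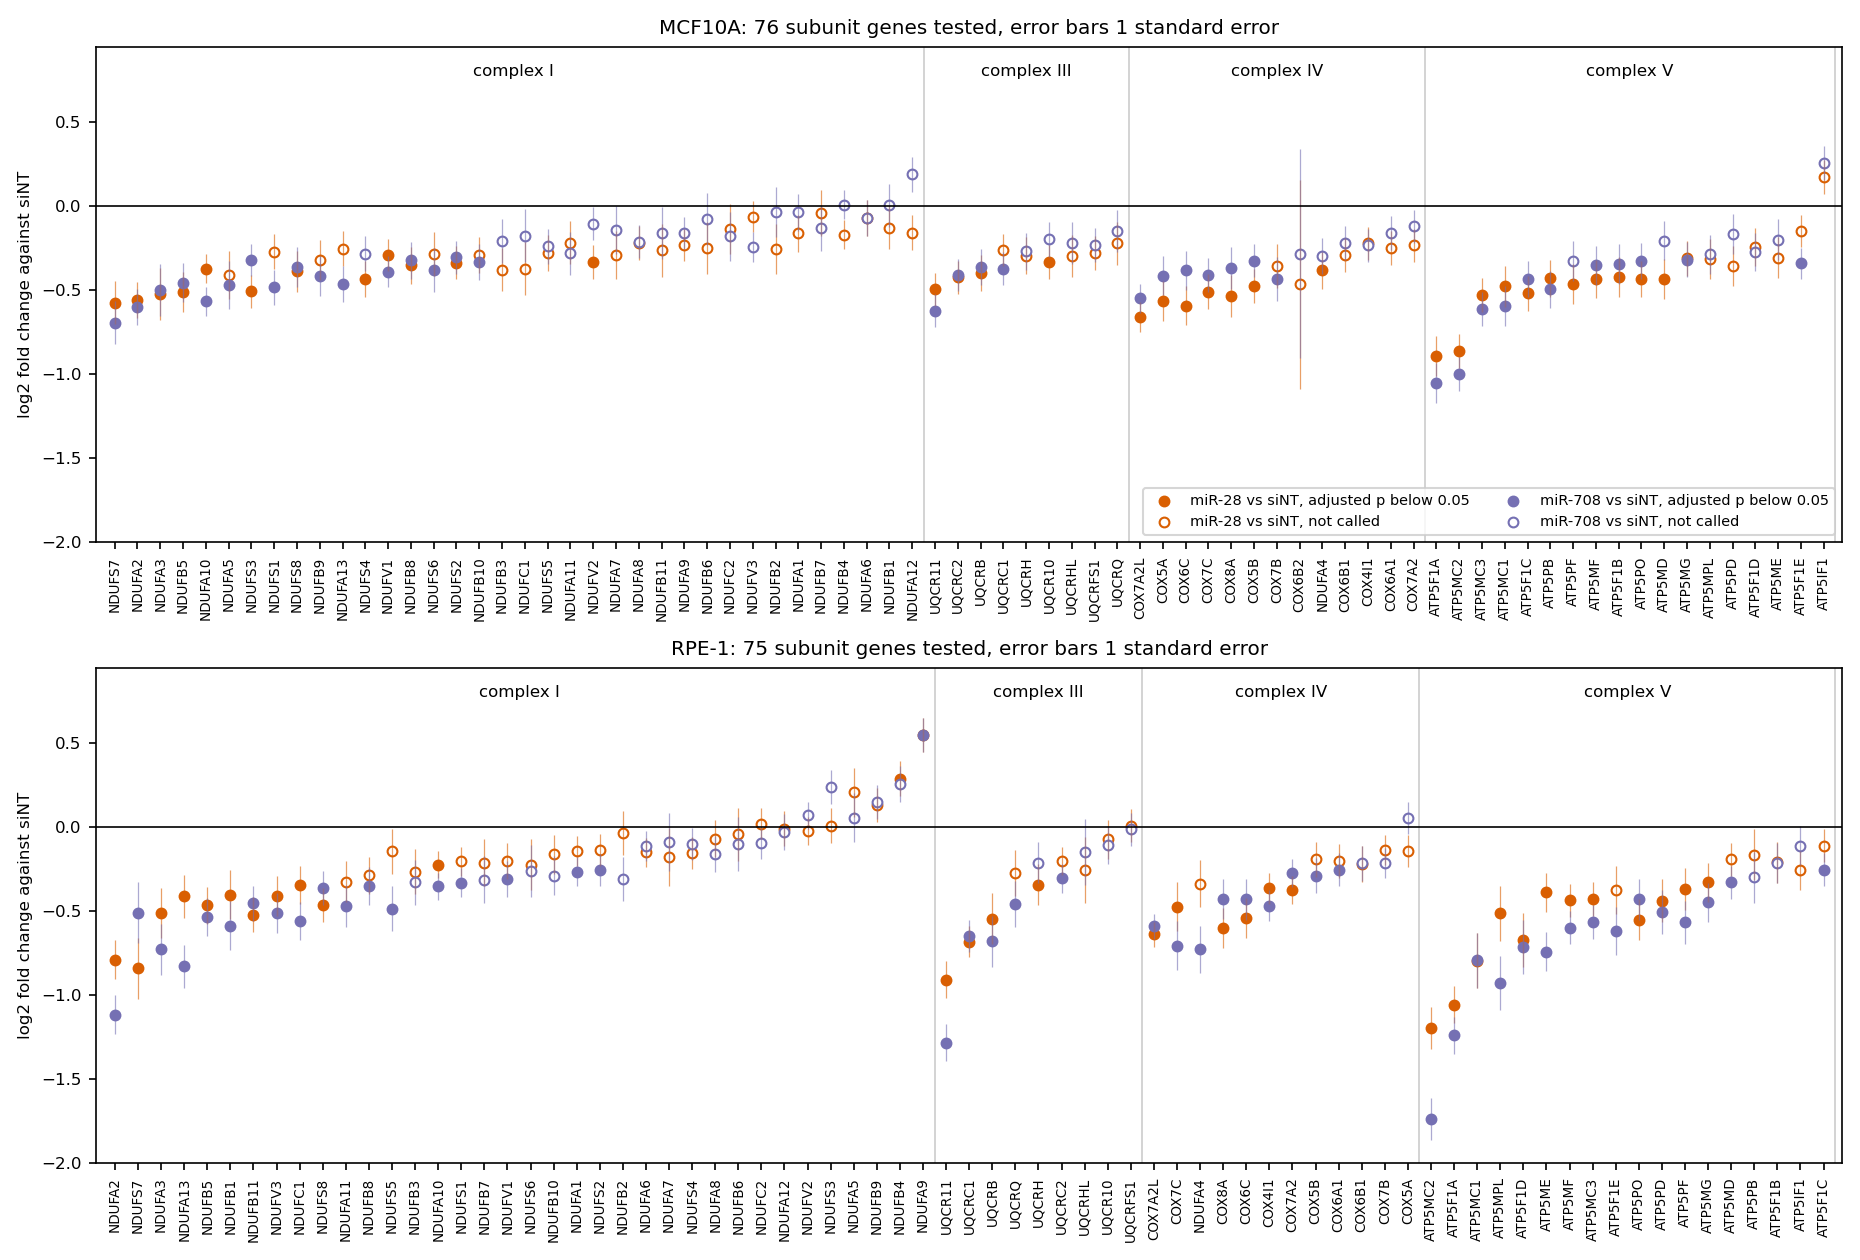
Log2 fold change against siNT (vertical axis, error bars 1 standard error) of each subunit gene tested, ordered by complex, with miR-28 in orange and miR-708 in purple, in MCF10A (top, 76 genes) and RPE-1 (bottom, 75 genes). Filled points are called at adjusted p under 0.05. Most points lie below 0, the lowest being ATP5MC2 and ATP5F1A in MCF10A and ATP5MC2, UQCR11 and ATP5F1A in RPE-1. NDUFA9 and NDUFB4 are the filled points above 0 in RPE-1.

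With the deposited scaling complex V had the largest share of subunits called lower in all 4 comparisons, and by library size complex IV had a larger one with miR-28 in MCF10A. In MCF10A 11 of its 18 genes were lower with each mimic, and in RPE-1 12 with miR-28 and 15 with miR-708, with medians of -0.43, -0.33, -0.41 and -0.57. By library size 8, 6, 10 and 7 were lower, with medians of -0.32, -0.19, -0.32 and -0.25. All 3 genes for subunit c, the protein that forms the rotating ring in the membrane, were lower in all 4 comparisons, with medians of -0.53, -0.61, -0.80 and -0.79. These 3 genes, ATP5MC1, ATP5MC2 and ATP5MC3, encode the same mature protein behind different import sequences, and all 3 were also called lower in the 4 comparisons by library size. The peripheral stalk, which holds the head still, had 3, 2, 3 and 3 of 4 genes lower. Of the other 5 subunits of the membrane part 2, 2, 4 and 5 were lower, and of the 3 central stalk genes 1, 2, 1 and 3.

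ATP5F1A encodes the alpha subunit of the F1 head. In MCF10A it had 21072, 21512 and 21925 normalised counts with siNT, 11007, 12127 and 11621 with miR-28 and 12453, 9405 and 9514 with miR-708. In RPE-1 it had 11328, 11190.5 and 12672, 6422, 5137 and 5415 and 5513, 4510.5 and 4905. Every mimic library was thus far below every siNT library, and the mimic groups overlapped in both lines. The mean was 21503 ± 426 with siNT and 11585 ± 561 with miR-28 in MCF10A (SD, n = 3), which is 53.9% of siNT (log2 fold change -0.89, SE 0.12, adjusted p = 0.00081), and 48.6% with miR-708 (-1.05, SE 0.12, adjusted p = 0.000131). In RPE-1 the means were 48.2% and 42.4% of siNT (-1.06, SE 0.11, adjusted p = 3.94e-05 and -1.24, SE 0.11, adjusted p = 5.83e-06). Its partner ATP5F1B, the most abundant subunit per length of annotated transcript, moved less. It was lower in MCF10A, by -0.42 (adjusted p = 0.0275) and -0.34 (adjusted p = 0.0452), and in RPE-1 its values were -0.21 (adjusted p = 0.184) and -0.21 (adjusted p = 0.151). The MCF10A calls of ATP5F1B were lost in 5 and 6 of the 9 fits that left out 1 library.

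ATP5MC2 fell most of all subunits in RPE-1. It had 1659, 1726 and 1683 normalised counts with siNT, 865, 613 and 754 with miR-28 and 541, 458 and 522 with miR-708 there, and the 3 groups did not overlap. The log2 fold changes were -1.20, SE 0.12, adjusted p = 3.99e-05 and -1.74, SE 0.12, adjusted p = 1.4e-06. In MCF10A it had 1644, 1739 and 1746 with siNT, 914, 981 and 924 with miR-28 and 940.5, 883 and 752 with miR-708. There the mimic groups overlapped each other and both lay below siNT (-0.86, SE 0.10, adjusted p = 0.000435 and -0.998, SE 0.10, adjusted p = 7.8e-05). ATP5MC1 fell by less, with -0.48 (adjusted p = 0.0159) and -0.59 (adjusted p = 0.00337) in MCF10A and -0.80 (adjusted p = 0.00269) and -0.79 (adjusted p = 0.0017) in RPE-1, and ATP5MC3 changed by -0.53 (adjusted p = 0.00468) and -0.61 (adjusted p = 0.00113) in MCF10A and -0.43 (adjusted p = 0.00664) and -0.56 (adjusted p = 0.000787) in RPE-1. ATP5IF1, which encodes a protein that blocks the synthase from running backwards, was called in no comparison. Its values were 0.18 (adjusted p = 0.236) and 0.26 (adjusted p = 0.0743) in MCF10A and -0.26 (adjusted p = 0.0911) and -0.11 (adjusted p = 0.431) in RPE-1, and by library size it was called higher with miR-708 in MCF10A.

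**Figure D3:**
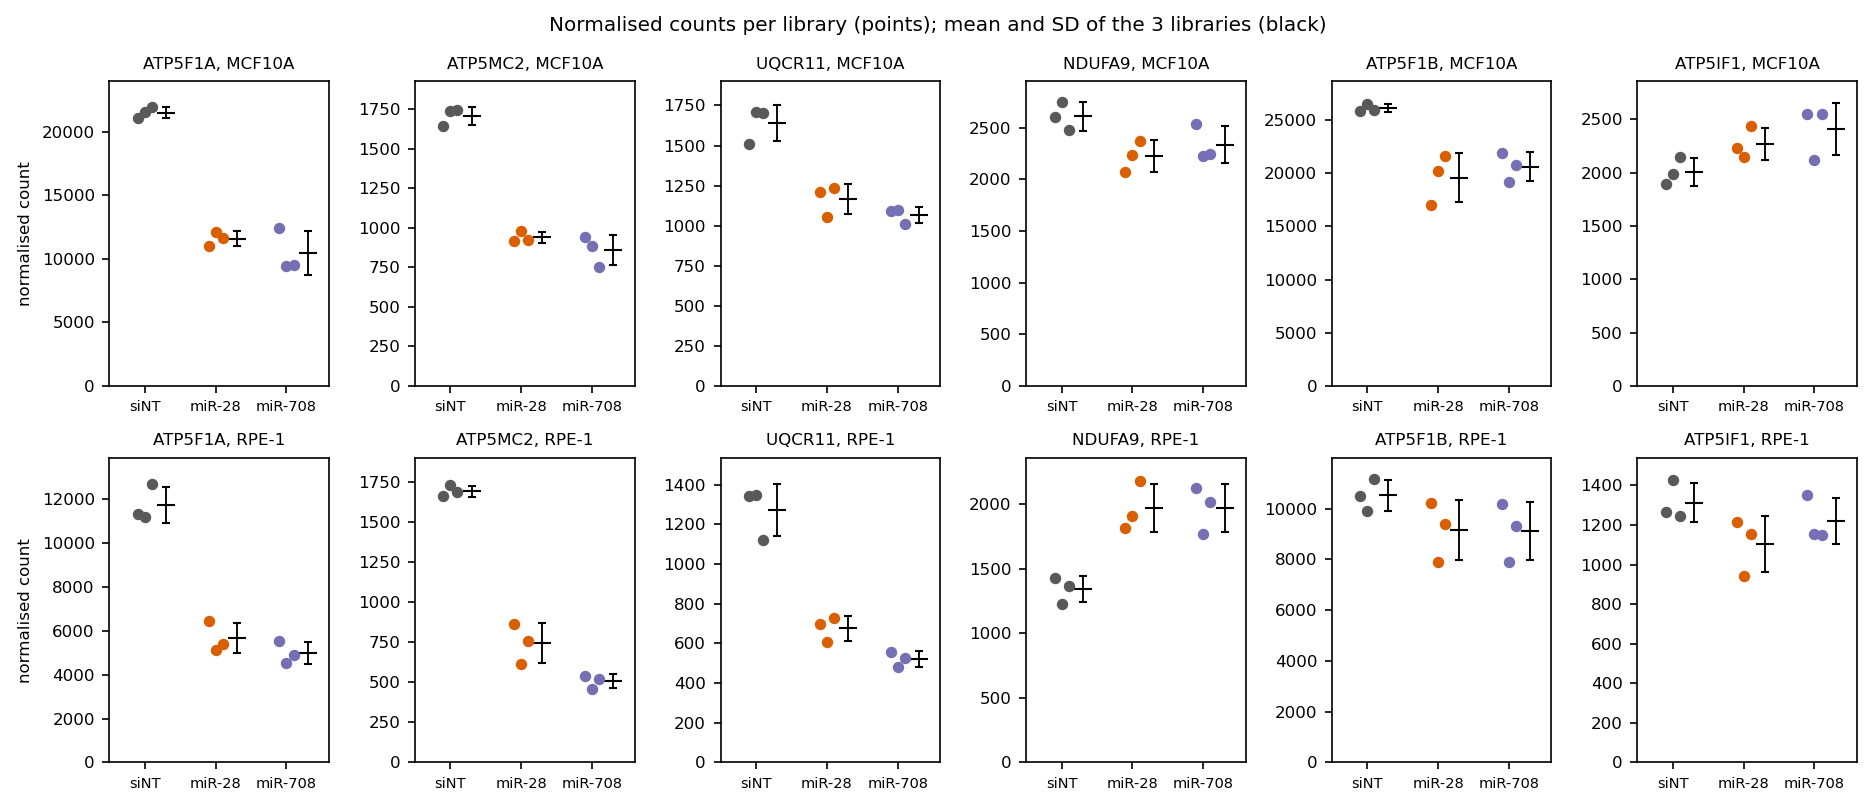
Normalised counts (vertical axes from 0) of 6 subunit genes in each of the 9 libraries of MCF10A (top) and RPE-1 (bottom), by treatment, with the mean and SD of 3 libraries in black. ATP5F1A, ATP5MC2 and UQCR11 have every mimic library below every siNT library in both lines, while NDUFA9 has every mimic library above siNT in RPE-1 and below or overlapping it in MCF10A.

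Complex IV had 7 of 13 genes lower with each mimic in MCF10A, and 6 and 9 of 12 in RPE-1, with medians of -0.46, -0.32, -0.35 and -0.36, and by library size 6, 1, 6 and 3 were lower, with medians of -0.36, -0.18, -0.26 and -0.04. COX6C, COX7C, COX8A and COX7A2L were lower in all 4 comparisons. COX7A2L encodes a factor that joins complexes III and IV into a supercomplex, and it had 2497, 2515 and 2544 normalised counts with siNT, 1574, 1641 and 1568 with miR-28 and 1811, 1572 and 1798 with miR-708 in MCF10A. In RPE-1 it had 2157, 2159 and 2273, 1396, 1355 and 1486 and 1521, 1427 and 1429. Mimic and siNT libraries did not overlap in either line (-0.66, SE 0.09, adjusted p = 0.000742 and -0.55, SE 0.09, adjusted p = 0.000899 in MCF10A, -0.64, SE 0.08, adjusted p = 9.35e-05 and -0.59, SE 0.08, adjusted p = 6.75e-05 in RPE-1). COX4I1 was lower in RPE-1, by -0.36 (adjusted p = 0.0088) and -0.47 (adjusted p = 0.00128), and had -0.22 (adjusted p = 0.131) and -0.23 (adjusted p = 0.0953) in MCF10A. NDUFA4, first assigned to complex I and now counted with complex IV, was lower with miR-28 in MCF10A, by -0.38 (adjusted p = 0.0284), and with miR-708 in RPE-1, by -0.73 (adjusted p = 0.00109). Its other values were -0.30 (adjusted p = 0.0568) with miR-708 in MCF10A and -0.34 (adjusted p = 0.0712) with miR-28 in RPE-1. COX6B2, close to the floor, was called in neither MCF10A comparison, with -0.46 (adjusted p = 0.623) and -0.28 (adjusted p = 0.763).

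Complex III had 4 of 9 genes lower with each mimic in MCF10A, and 4 and 5 in RPE-1, with medians of -0.29, -0.27, -0.27 and -0.30, where library size scaling gave 2, 2, 3 and 3 lower and a median that turned to 0.01 with miR-708 in RPE-1. UQCR11, a small accessory subunit, fell most within the complex in RPE-1, where it had 1343, 1351 and 1121 normalised counts with siNT, 696, 607 and 729 with miR-28 and 559, 480.4 and 525 with miR-708. In MCF10A it had 1512, 1709 and 1705, 1211, 1056 and 1232 and 1089, 1099.7 and 1010.0. Every mimic library lay below every siNT library in both lines, and in RPE-1 every miR-708 library also lay below every miR-28 library. The log2 fold changes were -0.49, SE 0.10, adjusted p = 0.0059 and -0.62, SE 0.10, adjusted p = 0.000924 in MCF10A and -0.91, SE 0.11, adjusted p = 0.000121 and -1.28, SE 0.11, adjusted p = 5.33e-06 in RPE-1. UQCRB, another accessory subunit, was also lower in all 4 comparisons. UQCRFS1, the Rieske iron-sulfur protein at the catalytic centre, was called in none, nor was UQCRHL, a copy of UQCRH whose reads cannot be fully separated from those of UQCRH and whose values are therefore uncertain (-0.29 (adjusted p = 0.111), -0.22 (adjusted p = 0.203), -0.26 (adjusted p = 0.309) and -0.15 (adjusted p = 0.529)).

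Complex I, the largest complex, had the smallest share of genes called lower with the deposited scaling, tied with complex III for miR-708 in MCF10A, where by library size complex IV had the smallest. Of its 36 genes 12 and 16 were lower in MCF10A, and 11 and 18 in RPE-1 where 2 and 1 were higher, with medians of -0.29, -0.26, -0.19 and -0.31. By library size 6, 6, 7 and 3 were lower, and with miR-708 in RPE-1 8 were higher and the median turned to 0.01. The 7 core subunits, which carry the flavin, the iron-sulfur clusters and the quinone site, had 6 lower with each mimic in MCF10A, and 2 and 5 in RPE-1. Of 18 accessory subunits outside the distal membrane arm 4, 6, 6 and 9 were lower, and of the 11 in that arm 2, 4, 3 and 4, against 12.0%, 17.3%, 23.5% and 31.2% of all genes, so that in RPE-1 the share in that arm (27.3% and 36.4%) was near that of all genes. NDUFS7, a core subunit that holds the last iron-sulfur cluster before ubiquinone, had 362, 364 and 343.3 normalised counts with siNT, 240.0, 221 and 257 with miR-28 and 216, 225 and 219.6 with miR-708 in MCF10A. Neither mimic group overlapped siNT (-0.57, SE 0.13, adjusted p = 0.0103 and -0.69, SE 0.13, adjusted p = 0.00231). In RPE-1 its values were -0.84, SE 0.18, adjusted p = 0.00341 and -0.51, SE 0.18, adjusted p = 0.0304, and the second call was lost in 4 of 9 fits that left out 1 library and by library size. NDUFA2, an accessory subunit of the matrix arm, had 628, 593 and 553 with siNT, 366.5, 296 and 367 with miR-28 and 287, 261 and 269 with miR-708 in RPE-1. Its log2 fold changes were -0.56, SE 0.11, adjusted p = 0.00457 and -0.60, SE 0.11, adjusted p = 0.00164 in MCF10A and -0.79, SE 0.12, adjusted p = 0.000405 and -1.12, SE 0.12, adjusted p = 1.89e-05 in RPE-1. The abundant NDUFB9 was lower with miR-708 in MCF10A, by -0.42 (adjusted p = 0.0198), and had -0.32 (adjusted p = 0.074) with miR-28 there and 0.13 (adjusted p = 0.302) and 0.15 (adjusted p = 0.218) in RPE-1. NDUFS5 was lower with miR-708 in RPE-1, by -0.49 (adjusted p = 0.00877), and was not called in the other 3 comparisons (-0.28 (adjusted p = 0.0796), -0.24 (adjusted p = 0.105) and -0.14 (adjusted p = 0.408)).

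NDUFA9 went the other way in RPE-1. It encodes an accessory subunit where the arms of complex I meet, and it had 1433, 1231 and 1366 normalised counts with siNT, 1820.4, 1910.2 and 2178 with miR-28 and 2129.5, 1767 and 2016 with miR-708. All 6 mimic libraries lay above all siNT libraries, and the gene was called higher with both mimics (0.55, SE 0.10, adjusted p = 0.0016 and 0.55, SE 0.10, adjusted p = 0.000919) in every fit that left out 1 library. In MCF10A it had 2606, 2747 and 2474 with siNT, 2069, 2233 and 2376 with miR-28 and 2541, 2227 and 2241 with miR-708. There miR-28 lay below siNT, miR-708 overlapped it, and neither was called (-0.23 (adjusted p = 0.1) and -0.16 (adjusted p = 0.215)). NDUFB4, an accessory subunit of the distal membrane arm, was also called higher with miR-28 in RPE-1, by 0.29 (adjusted p = 0.0422), and had 0.26 (adjusted p = 0.0508) with miR-708. The count of 2 genes called higher with miR-28 in RPE-1 became 1 without siNT library 1, 2 or 3, without miR-28 library 1 or 3 and without miR-708 library 2, and the count of 1 with miR-708 became 2 without miR-28 library 1 or 2 and without miR-708 library 3.

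Across comparisons, 28 subunits were called lower with both mimics in MCF10A and 32 in RPE-1, where 9.81% and 20.8% of all genes were, and 18 of the 75 tested in both lines in all 4 comparisons, where 5.67% of all genes were. The mimics share their siNT libraries, so calls with both are not independent. The 18 were ATP5F1A, ATP5MC1, ATP5MC2, ATP5MC3, ATP5MF and ATP5PO of complex V, COX6C, COX7A2L, COX7C and COX8A of complex IV, UQCR11 and UQCRB of complex III, and NDUFA2, NDUFA3, NDUFA10, NDUFB5, NDUFS7 and NDUFS8 of complex I. Called lower in none of the 4 were 15 of the 75 subunits tested in both lines, of which NDUFA6, NDUFA7, NDUFA8, NDUFA9, NDUFA12, NDUFB2, NDUFB3, NDUFB4, NDUFB6, NDUFB7 and NDUFC2 belong to complex I. No subunit was called in opposite directions in the 2 lines. Of the other transcripts that met the name rule, the read-through transcript NDUFC2-KCTD14, whose reads overlap those of NDUFC2, was lower by -0.91 (adjusted p = 0.032) and -0.90 (adjusted p = 0.0241) in MCF10A and -0.87 (adjusted p = 0.00534) with miR-708 in RPE-1, with -0.57 (adjusted p = 0.053) for miR-28 there. None of the 3 others tested in each line was called by limma.

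Few subunits were called between the mimics. In MCF10A 0 of 76 subunits were called between miR-708 and miR-28 by limma, where 0.265% of all genes were lower and 1.28% higher, and 3 were under an unadjusted p of 0.05. The median difference was 0.05, and all 3 miR-708 libraries lay below the miR-28 libraries in 2 subunits and above them in 5, as in 9.62% and 10.4% of all genes. In RPE-1 3 of 75 were lower with miR-708 than with miR-28 and 0 higher, where 11.4% of all genes were lower and 9.88% higher, and the median difference was -0.10, with 5 subunits not overlapping on the lower side (20.2% of all genes) and 1 on the higher side (18.5%). The 3 were ATP5MC2 (-0.54, SE 0.12, adjusted p = 0.0129), NDUFA13, an accessory subunit of complex I (-0.42, SE 0.13, adjusted p = 0.0415), and UQCR11 (-0.38, SE 0.11, adjusted p = 0.0377). NDUFA13 had 1407, 1507 and 1255 normalised counts with siNT, 1135, 869 and 1149.8 with miR-28 and 828, 825 and 696 with miR-708 in RPE-1, and no 2 of these groups overlapped. In a fit that blocked on replicate number, 7 genes were called lower, with ATP5ME, ATP5MPL, NDUFA4 and NDUFS5 added. By library size none of the 3 was called and 14 others were called higher, where 4650 of all 14527 genes were called and 84.8% of these were higher. The count of 3 became 1 without siNT library 1, without miR-28 library 1 or 3, or without any 1 of the miR-708 libraries, and 10 without miR-28 library 2.

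**Figure D4:**
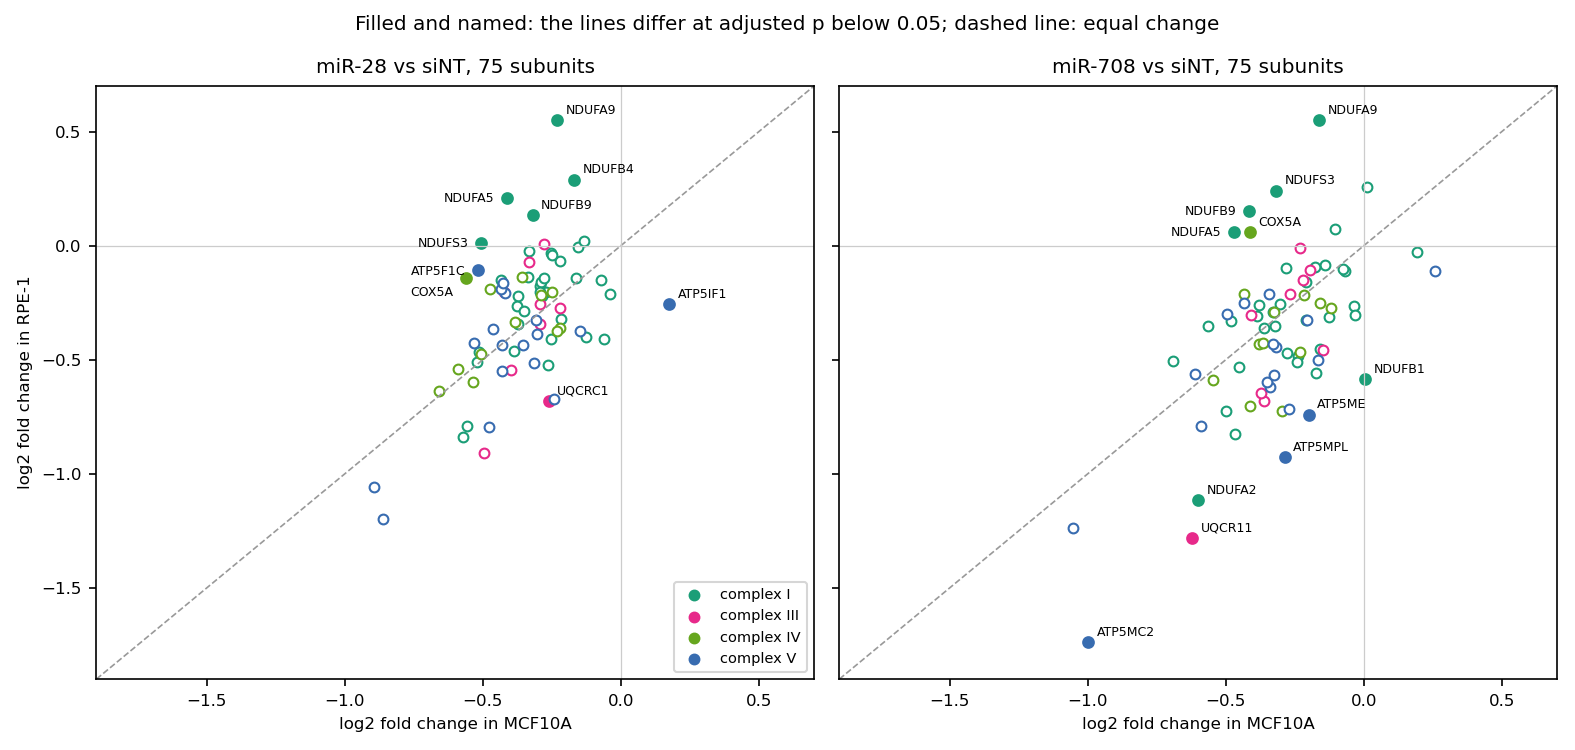
Log2 fold change against siNT in MCF10A (horizontal axis) and RPE-1 (vertical axis) of the 75 subunits tested in both lines, with miR-28 (left) and miR-708 (right), coloured by complex. Filled and named genes are those whose change differs between the lines, and NDUFA9 lies farthest above the dashed line of equal change in both panels.

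The lines were compared by a t test on the difference of the fold changes of their 2 separate limma fits, over 13339 genes. It called 9 of 75 subunits with miR-28 and 11 with miR-708. With miR-28 the change in RPE-1 was higher than in MCF10A for 7 subunits and lower for 2, where 12.1% and 11.3% of all genes were called in those directions. With miR-708 it was higher for 5 and lower for 6, where 20.2% and 19.6% of all genes were called. NDUFA9, NDUFA5, NDUFS3, NDUFB9 and COX5A had a higher change in RPE-1 with both mimics. NDUFA9 had the largest difference, 0.78, SE 0.14, adjusted p = 0.000546 with miR-28 and 0.71, SE 0.14, adjusted p = 0.000405 with miR-708. In the other direction with miR-708 were ATP5MC2 (-0.74, SE 0.16, adjusted p = 0.00113), UQCR11 (-0.66, SE 0.15, adjusted p = 0.00148), the membrane subunits ATP5ME and ATP5MPL, and NDUFA2 and NDUFB1 of complex I. Over the 75 subunits the log2 fold changes of the lines had Pearson's r of 0.514 and Spearman's rho of 0.382 with miR-28 and 0.589 and 0.440 with miR-708, against 0.395 and 0.415, and 0.467 and 0.410, over all genes tested in both lines. These correlations are across genes, which are not independent replicates and share the libraries of their line.

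Leaving out 1 library moved the counts of the line difference with miR-28, whose 7 higher became 2 without RPE-1 siNT library 2 or miR-28 library 1, 3 without MCF10A siNT library 9 or miR-28 library 8, and 4 without MCF10A siNT library 7 or 8, MCF10A miR-28 library 7 or 9 or RPE-1 siNT library 1. Its 2 lower became 0 without MCF10A miR-28 library 9, RPE-1 siNT library 1 or 2 or RPE-1 miR-28 library 2, 4 without RPE-1 miR-28 library 1, and 1 without MCF10A siNT library 7, 8 or 9, MCF10A miR-28 library 8, MCF10A miR-708 library 9 or RPE-1 miR-708 library 2 or 3. With miR-708 the 5 higher became 3 without MCF10A siNT library 9 or miR-708 library 8 or 9. NDUFA9 was called with both mimics in all 18 such fits, as were ATP5MC2 and UQCR11 with miR-708.

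Set against the cytosolic ribosomal proteins, which are made from mRNAs of similar length, the subunits had a similar median with miR-28 in MCF10A and one nearer to 0 in the other comparisons. Of 84 ribosomal protein genes 29 and 63 were called lower in MCF10A and 77 and 81 in RPE-1, with medians of -0.35, -0.55, -0.77 and -1.12, where the subunits had -0.33, -0.31, -0.26 and -0.33 and 12.0%, 17.3%, 23.5% and 31.2% of all genes were called lower. The 29 became 15 without siNT library 8, 17 without siNT library 9 and 19 without miR-28 library 8. By library size 20, 45, 76 and 76 ribosomal protein genes were lower, with medians of -0.24, -0.40, -0.69 and -0.80, where the subunits had -0.22, -0.17, -0.18 and -0.01. The ribosomal proteins took 7.30%, 5.92% and 5.18% of the summed value of the MCF10A libraries with siNT, miR-28 and miR-708, and 2.98%, 1.78% and 1.61% in RPE-1. The lists differ in size and were not tested against each other.

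**Figure D5:**
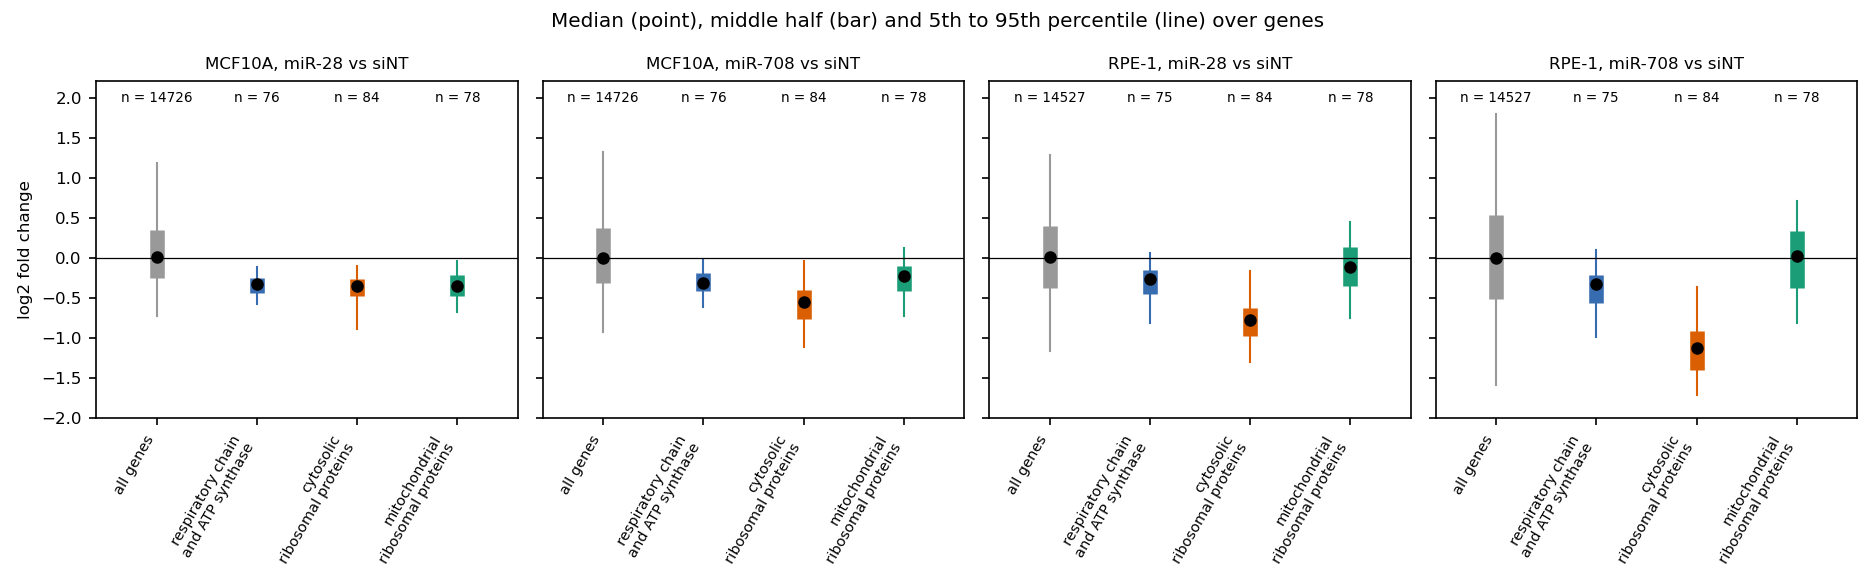
Log2 fold change against siNT (vertical axis) of all genes tested, the subunits, the cytosolic ribosomal proteins and the mitochondrial ribosomal proteins in each comparison, with the median (point), the 25th to 75th percentile (thick line) and the 5th to 95th percentile (thin line). With the deposited scaling, which is shown, the subunit medians lie between -0.33 and -0.26, while those of the cytosolic ribosomal proteins go from -0.35 to -1.12.

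The mitochondrial ribosomal proteins, which make the subunits encoded by mitochondrial DNA, fell in part in MCF10A, where 36 and 29 of 78 were lower, 0 and 1 higher, and the medians were -0.35 and -0.23. In RPE-1 24 and 19 were lower and 11 and 26 higher, with medians of -0.12 and 0.02, and by library size 13 and 8 were lower and 14 and 42 higher there. In RPE-1 30.8% and 24.4% of them were thus lower and 14.1% and 33.3% higher with the deposited scaling, where 23.5% and 31.2% of all genes were lower and 23.3% and 30.9% higher. Proteins that belong to the chain or work with it but fall outside the name rule include complex II, cytochrome c and the carriers that exchange ADP, ATP and phosphate. They also include CYC1 of complex III and NDUFAB1 of complex I, which the counts of those complexes above leave out. Of 15 such genes 8 and 7 were lower in MCF10A (0 higher) and 4 and 4 lower in RPE-1 (1 and 2 higher), with medians of -0.40, -0.34, 0.03 and 0.05. The shares lower were 53.3%, 46.7%, 26.7% and 26.7% against 12.0%, 17.3%, 23.5% and 31.2% of all genes, so those in RPE-1 were near that of all genes. In RPE-1 6.67% and 13.3% were higher, against 23.3% and 30.9%. By library size 10 were higher with miR-708 in RPE-1, where 71.8% of the 9438 genes called were higher. The following genes were picked from these lists after their values were seen. The phosphate carrier SLC25A3 was lower in all 4, by -0.44 (adjusted p = 0.0252), -0.58 (adjusted p = 0.00405), -0.82 (adjusted p = 0.000284) and -1.09 (adjusted p = 1.94e-05). The ADP/ATP carrier SLC25A6 was lower by -0.45 (adjusted p = 0.0119), -0.77 (adjusted p = 0.000375), -0.99 (adjusted p = 0.000227) and -1.44 (adjusted p = 8.32e-06). The other ADP/ATP carriers of the list were not lower in all 4. SLC25A5 had -0.53 (adjusted p = 0.00948), -0.75 (adjusted p = 0.000859), -0.35 (adjusted p = 0.0231) and 0.03 (adjusted p = 0.813). SLC25A4 had -0.16 (adjusted p = 0.303), -0.00 (adjusted p = 0.999), -0.48 (adjusted p = 0.00363) and -0.40 (adjusted p = 0.00692). CYC1, the cytochrome c1 of complex III, was lower in MCF10A, by -0.40 (adjusted p = 0.0131) and -0.34 (adjusted p = 0.0185), and higher with miR-708 in RPE-1, by 0.44 (adjusted p = 0.00363), with 0.17 (adjusted p = 0.194) for miR-28 there.

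Of 47 assembly factors, which build the complexes without staying in them, 7 and 7 were lower and 0 and 3 higher in MCF10A, and 8 and 12 lower and 10 and 17 higher in RPE-1, with medians of -0.10, -0.18, 0.01 and 0.06, and by library size 3 and 3 were lower and 1 and 9 higher in MCF10A and 4 and 4 lower and 11 and 25 higher in RPE-1. The shares called lower (14.9% and 14.9% in MCF10A, 17.0% and 25.5% in RPE-1) were near or below those of all genes (12.0%, 17.3%, 23.5% and 31.2%). With miR-708 in MCF10A and with miR-28 and miR-708 in RPE-1, 6.38%, 21.3% and 36.2% were higher, against 15.5%, 23.3% and 30.9% of all genes. TMEM126B, which helps to build the membrane arm of complex I, was higher in RPE-1 with both mimics, by 0.88 (adjusted p = 8.09e-05) and 1.08 (adjusted p = 9.17e-06), as was the ATP synthase factor TMEM70, by 0.79 (adjusted p = 0.000796) and 1.03 (adjusted p = 6.64e-05). In MCF10A TMEM126B had 0.08 (adjusted p = 0.698) and 0.31 (adjusted p = 0.0928) and TMEM70 -0.37 (adjusted p = 0.0807) and -0.08 (adjusted p = 0.704). ATPAF1, another factor of the ATP synthase, was lower in RPE-1, by -0.91 (adjusted p = 0.000307) and -0.81 (adjusted p = 0.000329), and with miR-28 in MCF10A, by -0.48 (adjusted p = 0.0156), with -0.28 (adjusted p = 0.0935) for miR-708 there. Of 15 regulators of mitochondrial genes 5 and 8 were lower and 0 higher in MCF10A, and of 14 tested in RPE-1 2 and 2 were lower and 5 and 6 higher, or 6 and 11 higher by library size. In MCF10A 33.3% and 53.3% were thus lower, against 12.0% and 17.3% of all genes. In RPE-1 14.3% were lower with each mimic, below the 23.5% and 31.2% of all genes, and 35.7% and 42.9% were higher, against 23.3% and 30.9%. PPARGC1B, a coactivator of mitochondrial genes, was lower in MCF10A, by -0.58 (adjusted p = 0.0285) and -0.75 (adjusted p = 0.00551), and higher in RPE-1, by 2.23 (adjusted p = 6.75e-05) and 2.44 (adjusted p = 1.64e-05). TFAM, which packages and transcribes mitochondrial DNA, was higher in RPE-1, by 0.81 (adjusted p = 0.000229) and 0.95 (adjusted p = 3.38e-05), and lower with miR-708 in MCF10A, by -0.42 (adjusted p = 0.0267), with -0.36 (adjusted p = 0.0664) for miR-28 there. HIF1A, which encodes the oxygen-sensitive transcription factor subunit, was lower in all 4, by -0.51 (adjusted p = 0.00863), -0.67 (adjusted p = 0.00124), -0.93 (adjusted p = 2.75e-05) and -1.34 (adjusted p = 1.02e-06). These genes too were picked after their values were seen.

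The median subunit transcript was 756 nt long, with 48 of 77 under 1000 nt, close to the cytosolic ribosomal proteins at 827 nt and far below all genes tested at 3224 nt in MCF10A and 3259 nt in RPE-1. Among genes under 1000 nt the medians over all genes were -0.12 and -0.03 in MCF10A and -0.18 and -0.19 in RPE-1, where the 47 subunits of that length had -0.31, -0.27, -0.32 and -0.35 and the 47 ribosomal proteins -0.33, -0.52, -0.72 and -1.06. Within the subunits, Spearman's rho of fold change and length was -0.19 and -0.42 in MCF10A and 0.09 and 0.03 in RPE-1, across 76 and 75 genes that share their libraries. In MCF10A with miR-708 the longer subunit mRNAs were thus the lower ones, such as ATP5F1A, and no such order was seen in RPE-1.

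Few subunit mRNAs held a site of at least 7 bases for the shared seed in the 3′ UTR. Their 3′ UTRs were short, with a median of 193 bases in MCF10A where that of all genes was 1348. AGCTCCT, which pairs with bases 2 to 8, or GCTCCTA, which pairs with bases 2 to 7 and has an A after it and overlaps the first by 6 letters, was found on the mRNA strand in the 3′ UTR of 7 of 75 subunits with an annotated 3′ UTR among those tested in MCF10A (9.33%) and 6 of 74 in RPE-1 (8.11%), where 18.7% of all genes held 1 of them in each line, and every match in a subunit held AGCTCCT. With a site, 4 and 5 of 7 were called lower in MCF10A and 5 and 5 of 6 in RPE-1, with medians of -0.40, -0.43, -0.61 and -0.70. Without one, 30 and 33 of 68 and 28 and 42 of 68 were called lower, with medians of -0.32, -0.30, -0.26 and -0.33. The same split over all genes gave -0.09 with and -0.01 without a site for miR-28 in MCF10A, -0.14 and -0.01 for miR-708, -0.16 and 0.03 for miR-28 in RPE-1 and -0.27 and 0.04 for miR-708, and 19.9%, 29.3%, 38.1% and 46.6% of all genes with a site were called lower, against 11.8%, 16.6%, 21.9% and 29.7% without one. Most subunits called lower thus held no such match in the 3′ UTR, ATP5MC2 among them. The sites of ATP5F1A, UQCR11 and NDUFA10, which were lower in all 4 comparisons, and of ATP5F1D of the central stalk, are shown with the match in capitals, on the mRNA strand and in hg38 coordinates:
ATP5F1A: tgctgctcttgAGCTCCTgacctcgtggtc
UQCR11: ctggtggtgctAGCTCCTcccacctcagca
NDUFA10: tccaatatggtAGCTCCTAgccacatgtgg
ATP5F1D: tgggcccagccAGCTCCTggggtcccggcc
The ATP5F1A window is at chr18:46082827-46082856 on the minus strand, 1437 bases after the stop codon in a 3′ UTR of 4034 bases, and the UQCR11 window is at chr19:1598182-1598211 on the minus strand, 44 bases after the stop codon of a 3′ UTR of 1075 bases. NDUFA10, an accessory subunit of complex I, holds the longer match that ends in an A opposite base 1, at chr2:239960082-239960111 on the minus strand. ATP5F1D holds 2 matches, of which the first is shown, at chr19:1244493-1244522 on the plus strand. UQCRB, COX7B, with 2 sites, and COX6B2 also hold a match. A match is a description of these letters, and binding was not measured.

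In promoters, 64 of the 77 subunits had an entry in RefSeq (250 bases before to 50 after the start, GRCh38.p14). Nuclear genes for the respiratory chain are known for binding sites of NRF1 and of ETS factors such as GABP. GCATGCG, a core of the NRF1 site, was found on either strand in 11 (17.2%), where 4.13% of all 27305 promoters held it. CCGGAAG, an ETS core, was found in 18 (28.1%), where 10.7% of all held it, and either motif in 25 (39.1%). Among the 10585 promoters of genes tested in both lines the shares were higher, at 6.59% for the NRF1 core, 19.6% for the ETS core and 24.6% for either, and the ETS core was in 34.3% of cytosolic and 41.4% of mitochondrial ribosomal protein promoters. Those with the NRF1 core had medians of -0.30 and -0.32 in MCF10A and -0.20 and -0.26 in RPE-1 (n = 11), and those without it -0.32, -0.28, -0.27 and -0.33. Those with the ETS core had -0.30 and -0.25 in MCF10A and -0.30 and -0.38 in RPE-1 (n = 18), and those without it -0.33, -0.32, -0.24 and -0.31. An example of each core, in capitals, is shown from subunits lower in all 4 comparisons:
ATP5MC2 NRF1 core: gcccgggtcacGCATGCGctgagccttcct
NDUFS7 NRF1 core: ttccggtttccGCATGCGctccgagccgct
UQCR11 ETS core: tccaaccctcgCCGGAAGttactgtaagtg
They lie at chr12:53676105-53676134 on the minus strand, chr19:1383823-1383852 on the plus strand and chr19:1605561-1605590 on the minus strand.

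A run of 5 pyrimidines from the annotated start, the beginning of the terminal oligopyrimidine tract that marks ribosomal protein mRNAs, was looked for after the values were known. It was found in 9 of 64 subunits (14.1%), in 65.7% of the cytosolic ribosomal proteins with an entry and in 5.22% of all promoters. In RPE-1 8 of these 9 subunits were called lower with each mimic, with medians of -0.37 and -0.56, where 19 and 30 of the 53 others were called, with medians of -0.21 and -0.31. In MCF10A 4 and 6 of the 9 were called, with medians of -0.37 and -0.33, and 22 and 24 of the 54 others, with medians of -0.31 and -0.28. Of all genes tested, 23.5% and 31.2% were called lower in RPE-1 and 12.0% and 17.3% in MCF10A.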

How the data were processed

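PolyA+ libraries of 18 samples (3 replicates of 3 treatments in 2 lines) were sequenced with paired-end reads. Per the study's methods, the authors trimmed reads, aligned them to hg38 with HISAT2 2.1.0 and estimated counts per gene in Partek by expectation maximisation over the RefSeq 93 transcripts. The deposited values are normalised counts, a signal made by the authors from estimated counts divided by DESeq2 size factors, separately for each line, so levels are not comparable between lines and tests ran within a table, except the difference of fold changes between lines. Between 84.0% and 90.2% of low values were whole multiples of a library's step (tolerance 0.05 of a step), too few to restore counts, so no count test was run. Counting intervals would cover counting error only. The deposited comparison tables, which hold the authors' p-values, ratios, fold changes and group means, were not used. No column of values per sample was left out.

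Values were analysed as log2(value + 1) in limma 3.58.1 (R 4.3.3, trend in the spread), 1 fit per line over 9 libraries, for genes with at least 10 in 3 libraries, with Benjamini-Hochberg adjustment. The fits were tested on simulated data with changed genes first. Tables and figures used Python 3.11.15 with pandas 2.3.3 and matplotlib 3.10.9. The study gives biological triplicates, and p-values measure the spread between these. The members, gene lists and tests were chosen with earlier results of these data known. The genes given with values were the 5 called with both mimics that fell or rose most in each line (mean value at least 100), the 3 that differed most between mimics, restricted paralogues, NDUFA4, COX7A2L, ATP5IF1 and the 3 highest per 1000 nt.

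Same-numbered libraries deviated together in MCF10A for miR-28 and siNT (r = 0.263, 0.176 and 0.111 across genes) and for miR-708 and siNT (0.302, 0.115 and 0.155), and in RPE-1 for the 2 mimics (0.278, 0.198 and 0.134), so a fit with the replicate number as a block was run as an alternative. The others were the pseudocount, no filter, upper quartile and library size scaling, no trend, only the 6 libraries compared and leaving out each library. 3′ UTR and promoter sequences came from the hg38 annotation and RefSeq, and all 49 printed or listed windows were read back from the genome with 0 differences. The mature miRNA sequences are those of the study's mimics.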

Additional observations from a re-analysis of the deposited data

Results flagged for a closer look

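For 9 subunits with miR-28 and 11 with miR-708 the change against siNT differed between the lines (adjusted p under 0.05 over 13339 genes). The test was the t test on the difference of the fold changes of the 2 separate limma fits. With miR-28 7 were higher in RPE-1 and 2 lower, where 12.1% and 11.3% of all genes were. With miR-708 5 were higher and 6 lower, where 20.2% and 19.6% were. As RPE-1 minus MCF10A on the log2 scale, miR-28 gave 0.78 for NDUFA9, 0.62 for NDUFA5, 0.52 for NDUFS3, 0.46 for NDUFB4 and 0.45 for NDUFB9 of complex I. It gave 0.42 for COX5A of complex IV and 0.41 for ATP5F1C, the gamma subunit of the ATP synthase, and in the other direction -0.43 for ATP5IF1 and -0.42 for UQCRC1 of complex III. With miR-708 the difference was 0.71 for NDUFA9, 0.57 for NDUFB9, 0.56 for NDUFS3, 0.53 for NDUFA5 and 0.47 for COX5A. It was -0.74 for ATP5MC2, -0.66 for UQCR11, -0.64 for ATP5MPL, -0.59 for NDUFB1, -0.54 for ATP5ME and -0.52 for NDUFA2. Of the 5 genes with a higher change in RPE-1 for both mimics, NDUFA9 was called higher against siNT in RPE-1, and the other 4 were called in neither direction there. In MCF10A NDUFS3 and COX5A were called lower with both mimics, and NDUFA5 and NDUFB9 with miR-708. By library size ATP5F1C, COX5A and NDUFB9 with miR-28, and ATP5ME, ATP5MPL, NDUFA2 and NDUFB1 with miR-708, were no longer called. Each line was quantified and scaled in a table of its own, so line and table cannot be told apart.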

How the results depend on the processing

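Over all alternatives, 1276 values of single named genes kept their direction and their side of the threshold, 86 were no longer called, 15 became called and 4 changed sign. By library size the subunits called lower were 22 and 15 in MCF10A and 16 with miR-708 in RPE-1, those called higher were 2 (ATP5IF1 and NDUFA12) with miR-708 in MCF10A and 10 with miR-708 in RPE-1, and the medians were -0.22, -0.17 and -0.011. Between the mimics in RPE-1 it gave 0 lower and 14 higher, and between the lines 4 higher with miR-28 and 2 lower and 9 higher with miR-708. Of all genes called by library size, 71.8% were higher with miR-708 in RPE-1 and 84.8% between the mimics there. It reversed the sign of ATP5F1B, ATP5IF1 and UQCRHL with miR-708 in RPE-1, to 0.11, 0.21 and 0.17, none of them called in the main analysis. COX6B2, near the floor, ranged from -0.69 to 0.14 with miR-708 in MCF10A over the fits without 1 library, the highest without miR-708 library 7. By upper quartile scaling 1 subunit was higher with miR-708 in MCF10A and 2 in RPE-1, and 4 rather than 7 differed upwards between the lines with miR-28. With the replicate block 40, 41, 36 and 52 were lower, 1 was higher with miR-708 in MCF10A and 3 in RPE-1, and 7 were lower between the mimics in RPE-1. The sample labels give replicate numbers and do not say that same-numbered libraries were paired. In MCF10A, where same-numbered mimic and siNT libraries deviated together, the block moved no count of lower calls by over 1.5 times. In RPE-1 same-numbered mimic and siNT libraries deviated together more weakly (r = 0.021, 0.043 and 0.023 for miR-28 and 0.042, 0.151 and 0.073 for miR-708). With only the 6 libraries compared 2 were higher with miR-708 in RPE-1, and 1 was lower between the mimics in RPE-1 and 1 between the lines with miR-28. Without a trend in the spread 25 were lower with miR-708 in MCF10A, 1 was higher with miR-28 in RPE-1, 1 was lower between the mimics in RPE-1, and 0 and 3 differed between the lines with miR-28. Leaving out 1 library, the subunits called lower ranged from 17 to 43 with each mimic in MCF10A, from 20 to 39 and 37 to 51 in RPE-1, and from 1 to 10 between the mimics in RPE-1. Those called higher ranged from 0 to 1 with miR-708 in MCF10A and from 1 to 2 with each mimic in RPE-1. Between the lines, 0 to 4 were lower and 2 to 8 higher with miR-28, and 5 to 9 lower and 3 to 5 higher with miR-708. The cause of these shifts was not tested. At this depth 3 reads are 2.36 to 4.41 normalised counts, which limits COX6B2, NDUFA4L2 and the antisense transcript NDUFV2-AS1.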
